A study of Rattus norvegicus with 60 samples.

Results

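The 8 genes described here are a chosen list of enzymes and regulators of polyamine metabolism: Odc1, Amd1, Srm, Sms, Sat1, Azin1, Oaz1 and Smox. They are 8 of 14324 genes in the table. They were chosen by name, with earlier results of these rats in view. Among those results was the difference of Amd1 between sham rats with and without methylprednisolone (MP), known as one of the largest rises, so that this difference is given below as a description with no test. Long Evans female rats, 8 to 9 weeks old, received a spinal cord injury (SCI) or a sham operation (S), and then either MP, a synthetic glucocorticoid, at 30 mg/kg in ethanol, or the ethanol alone (EtOH). The sham groups are S-EtOH and S-MP, and the injured ones SCI-EtOH and SCI-MP. Each was sampled after medication at 2, 4 and 6 h and then at 8, 12, 24 and 48 h, S-EtOH and SCI-EtOH also at 0 h, with 2 rats per group and time and 1 array per rat, 60 in all. No group was free of ethanol by its label, and all rats were anaesthetised. The paper does not state whether the 0 h rats, killed at once, had already received the ethanol. A 5-mm piece of the lesioned cord holds every cell type there, and fewer cells of a type and less RNA per cell cannot be told apart in it.

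Polyamines are small, positively charged molecules that bind RNA and DNA and are needed for growth and translation. Ornithine decarboxylase (Odc1) makes putrescine from ornithine, which is the rate-limiting step. S-adenosylmethionine decarboxylase (Amd1) supplies the aminopropyl groups with which spermidine synthase (Srm) makes spermidine and spermine synthase (Sms) makes spermine. Antizyme (Oaz1), whose own synthesis is raised by polyamines through a shift of reading frame, binds ornithine decarboxylase and directs it to the proteasome, and the antizyme inhibitor (Azin1) draws the antizyme away. In the other direction, spermidine/spermine acetyltransferase (Sat1) marks polyamines for export or oxidation, and spermine oxidase (Smox) turns spermine back into spermidine and releases hydrogen peroxide. Ornithine decarboxylase and the acetyltransferase are known to be rapidly inducible in injured nervous tissue. The antizyme and its inhibitor act on the proteins, which an RNA array does not see.

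RefSeq promoter windows of the build GRCr8 were at hand for 7 of the 8 genes, Azin1 being the other. The 250 bases before the start are printed for Sat1, Oaz1 and Srm, 3 genes that took different courses after injury and whose windows lie wholly before the annotated gene. The windows of the remaining 4 overlap a longer gene annotation and are described by their matches. Capitals mark matches to 4 short motifs, searched as written and as the reverse complement. No match overlaps another.
Sat1: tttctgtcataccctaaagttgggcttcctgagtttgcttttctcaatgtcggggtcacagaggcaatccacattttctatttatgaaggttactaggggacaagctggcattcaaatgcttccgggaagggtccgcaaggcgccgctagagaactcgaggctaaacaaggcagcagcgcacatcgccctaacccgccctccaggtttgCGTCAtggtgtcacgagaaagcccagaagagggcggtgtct
Oaz1: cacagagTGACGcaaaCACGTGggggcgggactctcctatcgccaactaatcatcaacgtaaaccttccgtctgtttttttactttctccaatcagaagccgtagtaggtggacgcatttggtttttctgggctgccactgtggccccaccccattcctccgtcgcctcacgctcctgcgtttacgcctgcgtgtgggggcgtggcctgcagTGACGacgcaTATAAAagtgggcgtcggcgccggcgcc
Srm: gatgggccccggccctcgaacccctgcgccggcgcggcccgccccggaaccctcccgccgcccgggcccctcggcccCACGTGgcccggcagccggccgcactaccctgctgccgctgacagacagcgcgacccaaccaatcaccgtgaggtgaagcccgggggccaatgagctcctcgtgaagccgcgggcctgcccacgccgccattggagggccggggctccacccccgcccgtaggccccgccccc
The Sat1 window is chrX:44007839-44008088 on the plus strand, that of Oaz1 is chr7:9536991-9537240 on the minus strand, and that of Srm is chr5:164308752-164309001 on the plus strand. The cAMP response motif TGACG was found in 18.2% of 33469 windows of this length. It lay at −41 in Sat1, at −243 and −38 in Oaz1, at −177 and −49 in Odc1, at −63 in Amd1 and at −250 in Sms, positions being those of the first base before the start. The E-box CACGTG, a sequence bound by Myc and its relatives, was found in 5.59% of windows and lay at −173 in Srm and −234 in Oaz1. The TATA box TATAAA was found in 12.9% of windows and lay at −28 in Oaz1 and −29 in Amd1. The glucocorticoid receptor motif AGAACA was found in 17.5% of windows and in none of the 7, and Smox held no match to any of the 4. These matches are letters in a window and not sites of binding, and sites further away were not searched.

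The deposited values are log2 values set relative to each probe set, so that every value below is a log2 relative value within 1 gene, and levels of different genes cannot be compared. For the same reason the presence of spinal cord markers could not be read as a level. Duplicate rats correlated at 0.16 to 0.90 over all probe sets, with the lowest value in SCI-EtOH at 6 h. Over all probe sets, the SCI-EtOH arrays stood apart from the other 3 groups on the third principal component (8.24% of the variance), at −31.9 to −4.12 against −3.58 to 26.8. The 2 SCI-EtOH arrays of 0 h, at −29.7 and −27.3, were among them. SCI-EtOH enters both the comparison of injury without MP (A, SCI-EtOH minus S-EtOH) and that of MP in injured rats (B, SCI-MP minus SCI-EtOH). It does not enter MP in sham rats (D, S-MP minus S-EtOH) or injury with MP (E, SCI-MP minus S-MP). A and B share the SCI-EtOH rats, A and D the S-EtOH rats, B and E the SCI-MP rats, and D and E the S-MP rats. A difference is called where limma's adjusted p over all 14324 genes was under 0.05. An SE is that of limma, and a mean difference is the mean over 2 to 48 h, with 14 rats in each group.

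**Figure D1:**
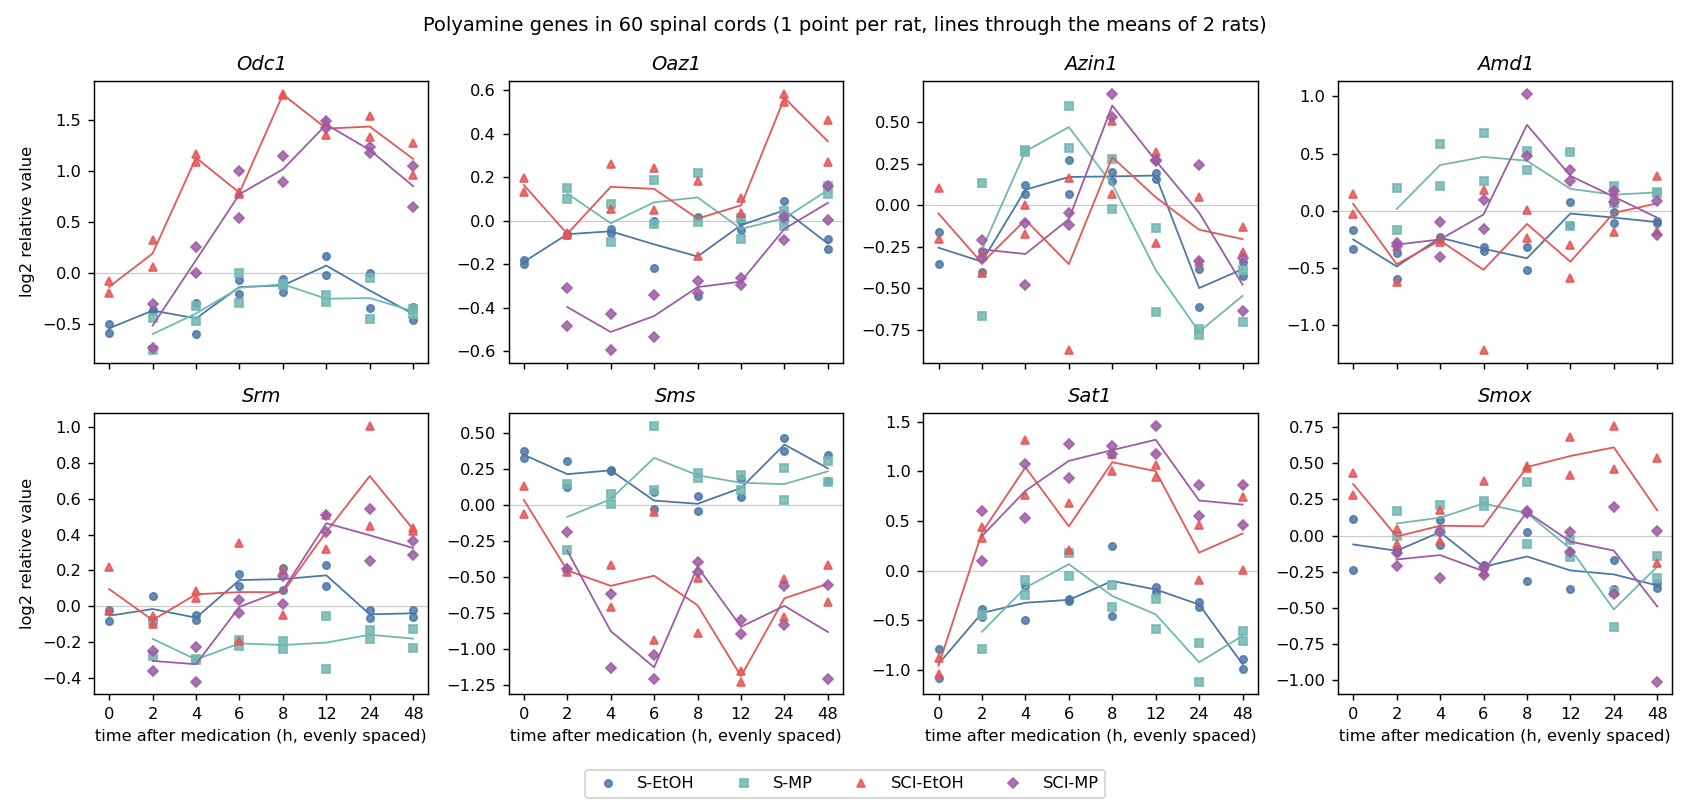
Log2 relative value (vertical axis, its own range in each panel) of the 8 polyamine genes against the time after medication in h (evenly spaced), with 1 point per rat, 4 groups and lines through the means of 2 rats. Odc1 and Sat1 of the injured groups lie above those of the sham groups from 4 h on in the means, Sms lies below them, and Oaz1 of SCI-MP starts lowest and approaches the others by 48 h.

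Odc1, the rate-limiting enzyme, was the member with the widest range, 2.36 over the 30 means of group and time. In S-EtOH its value over 2 to 48 h lay between −0.60 and 0.16 (median −0.25). In S-MP it lay between −0.76 and 0.00 (median −0.31). SCI-EtOH rats had values between 0.06 and 1.76 (median 1.23), and SCI-MP rats between −0.73 and 1.49 (median 0.95). The sham groups overlapped nearly fully, the injured groups lay mostly above them, and the low values of SCI-MP came from the first hours. Odc1 was 2.54-fold higher after injury without MP (log2 difference 1.35, SE 0.06, adjusted p = 1.4e-18 in limma) and rose by 1.01 after injury with MP (SE 0.06, adjusted p = 5.7e-16). Without MP both injured rats lay above both sham rats at 7 of 7 times, and with MP at 6 of 7.

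The course of Odc1 differed between the injured groups at first. At 2 h the SCI-EtOH rats were at 0.32 and 0.06 and the SCI-MP rats at −0.73 and −0.30, beside S-MP rats at −0.76 and −0.44. At 4 h the SCI-EtOH rats were at 1.17 and 1.10, and the SCI-MP rats at 0.25 and 0.00. SCI-EtOH reached its highest mean at 8 h, with 1.75 and 1.76, and SCI-MP at 12 h, with 1.43 and 1.49, where the SCI-EtOH rats were at 1.49 and 1.35. In B, Odc1 was lower by 0.71 at 2 h (adjusted p = 0.011 in limma), by 1.01 at 4 h (adjusted p = 0.00075) and by 0.74 at 8 h (adjusted p = 0.0035). At 12 h the difference was 0.04 (adjusted p = 0.90). Both SCI-MP rats lay below both SCI-EtOH rats at 4 of 7 times. The difference between the groups at 0 h, 0.41 (SE 0.16, adjusted p = 0.29), stands beside these values: with it added to B, Odc1 differed at 2~6 h by −0.17 (adjusted p = 0.92), while its 8 h value became −0.33 (adjusted p = 0.72). After quantile normalization the difference in B at 8 h was −0.02.

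Oaz1, the antizyme that removes ornithine decarboxylase, separated the injured rats by medication. Its values over 2 to 48 h lay between −0.17 and 0.58 in SCI-EtOH (median 0.14), and between −0.59 and 0.16 in SCI-MP (median −0.30). In S-EtOH they lay between −0.35 and 0.09 (median −0.05), and in S-MP between −0.10 and 0.22 (median 0.06). At each of the 7 times both SCI-MP rats lay below both SCI-EtOH rats. Oaz1 was higher by 0.24 in A (SE 0.04, adjusted p = 6.5e-06 in limma), lower in B at −0.45 (SE 0.04, adjusted p = 8.1e-10) and lower in E at −0.33 (SE 0.04, adjusted p = 2.6e-08). Its difference in D was 0.13 (SE 0.04, adjusted p = 0.051). The decrease in E does not use the SCI-EtOH arrays. It was found at 2, 4, 6 and 8 h, with differences of −0.52, −0.50, −0.52 and −0.41. The 8 h call was lost with a fit per time span (adjusted p = 0.15 in limma). At 24 and 48 h the values were −0.05 and −0.06. With the 0 h difference of 0.35 (SE 0.11, adjusted p = 0.18) taken off, A turned to −0.11 (adjusted p = 0.64), and with it added, B came to −0.10 (adjusted p = 0.97).

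Azin1, the antizyme inhibitor, had means that differed between the hours of sampling within each of the 4 groups, which was not tested. In SCI-EtOH these means ran from −0.35 at 6 h to 0.29 at 8 h, while the 2 rats of 6 h were at −0.87 and 0.16. Azin1 values lay between −0.61 and 0.27 in S-EtOH (median 0.07) and between −0.78 and 0.60 in S-MP (median −0.08). In SCI-EtOH they lay between −0.87 and 0.51 (median −0.15), and in SCI-MP between −0.64 and 0.67 (median −0.11). All 4 groups overlapped. None of its mean differences was called, with −0.03 in A (adjusted p = 0.80), 0.07 in B (adjusted p = 0.54), −0.06 in D (adjusted p = 0.76) and 0.11 in E (adjusted p = 0.33), all from limma. In E, however, Azin1 went from −0.39 at 2~6 h (adjusted p = 0.025) to 0.66 at 12 h (adjusted p = 0.031), and its 24~48 h value was 0.39 (adjusted p = 0.064). The call at 2~6 h was lost with a fit per time span (adjusted p = 0.055 in limma). The S-MP rats fell meanwhile from 0.34 and 0.60 at 6 h to −0.74 and −0.78 at 24 h.

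Amd1, the decarboxylase that feeds both synthases, was the member in view when the genes were chosen. In S-MP it lay between −0.17 and 0.68 (median 0.21), and in S-EtOH between −0.60 and 0.08 (median −0.24). The difference in D was 0.50 (SE 0.10). By phase it was 0.65 at 2~6 h, 0.85 at 8 h, 0.22 at 12 h and 0.23 at 24~48 h, and both S-MP rats lay above both S-EtOH rats at 6 of 7 times. In the injured groups Amd1 lay between −1.22 and 0.30 in SCI-EtOH (median −0.24) and between −0.40 and 1.02 in SCI-MP (median 0.08). It was higher in B by 0.33 (SE 0.10, adjusted p = 0.0061 in limma). It was called at 8 h, with a difference of 0.87 (adjusted p = 0.032), and also at 12 h, with 0.75 (adjusted p = 0.038). At 8 h the SCI-MP rats were at 1.02 and 0.48 and the SCI-EtOH rats at 0.01 and −0.24. At 2 and 4 h the differences in B were 0.17 and 0.01, and those in D 0.50 and 0.64. With the 0 h difference of 0.31 (SE 0.25, adjusted p = 0.70) added, B was 0.64 (adjusted p = 0.64), and its error then includes that of the 4 rats at 0 h. The calls in B at 8 and 12 h were lost after quantile normalization, where the differences were 0.79 and 0.51, and that at 12 h also with array weights and with a fit per time span. A, E and B minus D share sham rats with D, so that Amd1 is given there as values with no test. They were −0.01 in A (SE 0.10), −0.18 in E (SE 0.10) and −0.17 in B minus D (SE 0.14), and E at 2~6 h was −0.49.

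Srm, which makes spermidine, was lower with MP in sham rats and higher late after injury. In S-EtOH it lay between −0.09 and 0.23 (median 0.02), and in S-MP between −0.35 and −0.05 (median −0.21). Both S-MP rats lay below both S-EtOH rats at 6 of 7 times, and the difference in D was −0.25 (SE 0.05, adjusted p = 0.0019 in limma). The injured groups ranged from −0.19 to 1.01 in SCI-EtOH (median 0.26) and from −0.42 to 0.54 in SCI-MP (median 0.10). Srm was higher in A by 0.20 (SE 0.05, adjusted p = 0.0013) and in E by 0.30 (SE 0.05, adjusted p = 8.7e-06), and lower in B at −0.15 (SE 0.05, adjusted p = 0.018). The call in B was lost without either of 2 arrays, SCI-EtOH 6 h duplicate 1 or SCI-EtOH 24 h duplicate 2. It was also lost after quantile normalization (−0.08), with array weights, for 1 of the 2 probe sets and with the 0 h difference added (−0.0049). The call in A was lost after quantile normalization (0.08), for 1 of the 2 probe sets and with the 0 h difference taken off (0.05, adjusted p = 0.88). The rise came with time: at 2~6 h the differences were 0.00 in A and 0.02 in E, and at 24~48 h they were 0.62 (adjusted p = 2.0e-06) and 0.53 (adjusted p = 3.1e-05). The 2 probe sets of Srm correlated at only 0.287 over the 60 arrays. In A, 1 probe set differed by 0.07 (SE 0.09, adjusted p = 0.51) and the other by 0.33 (SE 0.06, adjusted p = 4.6e-06). From 2~6 h to 24~48 h, A changed by 0.10 in the first (adjusted p = 0.80) and by 1.13 in the second (adjusted p = 1.6e-07), so that the late rise is that of 1 probe set. In D the differences were −0.23 (adjusted p = 0.11) and −0.27 (adjusted p = 0.0019). By comparison, the 2 probe sets of Oaz1 correlated at 0.649 and were both lower in B, at −0.30 and −0.59. Those of Sms and Smox correlated at 0.988 or more, and Odc1, Amd1, Sat1 and Azin1 had 1 each. Whether probe sets of a gene share sequence, also with related gene copies, was not known from the files.

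**Figure D2:**
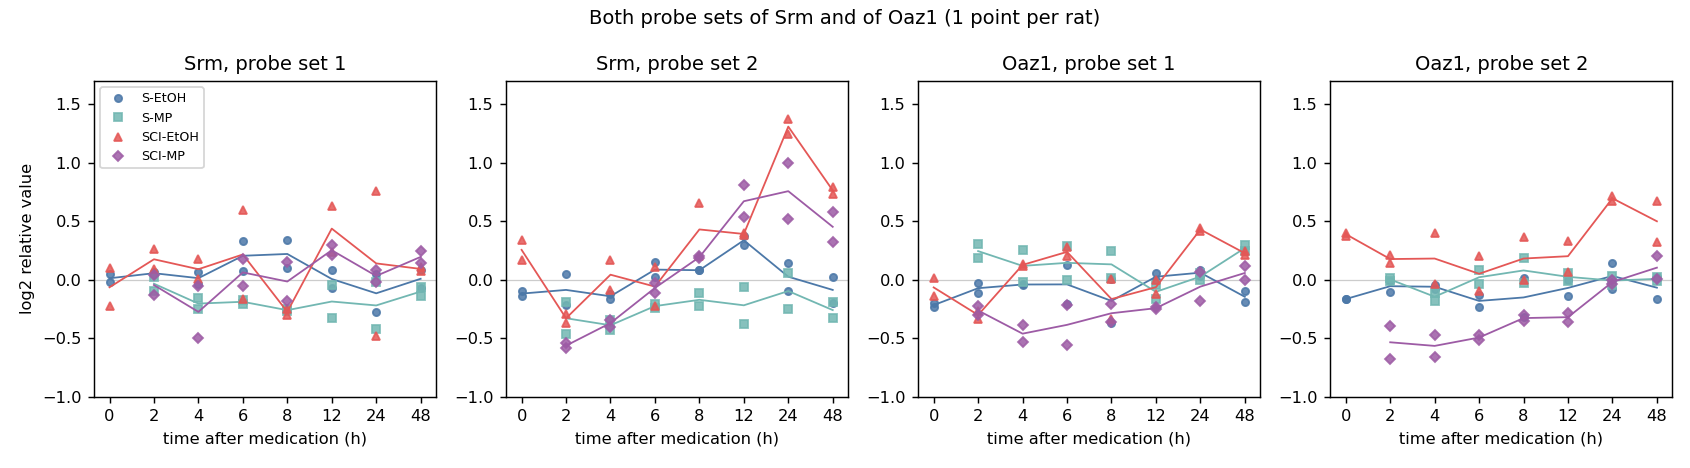
Log2 relative value of both probe sets of Srm and of Oaz1 against the time after medication in h (evenly spaced), with 1 point per rat and lines through the means of 2 rats. Srm probe set 2 rises to its highest values in SCI-EtOH at 24 h while probe set 1 shows no such course, and both Oaz1 probe sets are lowest in SCI-MP at 4 and 6 h.

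Sms, which makes spermine, was lower after injury both without and with MP. Sham values lay between −0.05 and 0.46 in S-EtOH (median 0.17) and between −0.31 and 0.55 in S-MP (median 0.15). SCI-EtOH rats had values between −1.23 and −0.05 (median −0.60), and SCI-MP rats between −1.21 and −0.19 (median −0.71). SCI-EtOH and S-EtOH did not overlap, although the highest SCI-EtOH rat and the lowest S-EtOH rat were both at −0.05, and at each of the 7 times both SCI-EtOH rats lay below both S-EtOH rats. Sms was lower by a difference of −0.84 in A (SE 0.08, adjusted p = 1.9e-11 in limma) and −0.89 in E (SE 0.08, adjusted p = 4.4e-12). The lowest mean of SCI-EtOH was that of 12 h, with −1.23 and −1.15. In SCI-MP it was that of 6 h, with −1.05 and −1.21. In B the 6 h difference was called, at −0.64 (adjusted p = 0.038 in limma), beside SCI-EtOH rats that lay apart at −0.94 and −0.05. Its mean differences with MP were −0.08 in B (adjusted p = 0.39) and −0.04 in D (adjusted p = 0.84). At 0 h the difference in A was already −0.31 (SE 0.20, adjusted p = 0.60), and with it taken off, A was −0.53 (adjusted p = 0.12).

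Sat1, the acetyltransferase that opens the way back, rose beside Odc1. Its sham values lay between −0.996 and 0.25 in S-EtOH (median −0.34) and between −1.12 and 0.18 in S-MP (median −0.41). SCI-EtOH rats had values between −0.09 and 1.32 (median 0.71), and SCI-MP rats between 0.09 and 1.46 (median 0.90). At each of the 7 times both injured rats lay above both sham rats of the same medication, in A and in E. Sat1 was higher by 1.02 in A (SE 0.09, adjusted p = 7.3e-12 in limma) and by 1.31 in E (SE 0.09, adjusted p = 1.4e-14), which are 2.03-fold and 2.48-fold. It was up at the first time already, with 0.81 in A and 0.97 in E at 2 h. At 0 h the 2 injured rats were at −0.88 and −1.04, and the 2 sham rats at −1.09 and −0.80, so that taking off this difference left A at 1.04 (adjusted p = 0.0057). Sat1 was higher in B by 0.23 (SE 0.09, adjusted p = 0.035). This call was lost in 14 of the 60 fits that left out 1 array, and each of these 14 arrays was of SCI-EtOH or SCI-MP. It was also lost with array weights (adjusted p = 0.14 in limma) and without both SCI-EtOH 6 h arrays (0.16). With the 0 h difference added it was lost too (0.22, adjusted p = 0.97).

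Smox, the oxidase of spermine, differed between the injured groups. It lay between −0.37 and 0.11 in S-EtOH (median −0.19) and between −0.63 and 0.37 in S-MP (median −0.02). In SCI-EtOH it lay between −0.25 and 0.76 (median 0.40), and in SCI-MP between −1.01 and 0.20 (median −0.12). SCI-EtOH overlapped S-EtOH in its lower values, and SCI-MP overlapped both sham groups. Only 1 SCI-MP rat lay below both, at −1.01 at 48 h, with its duplicate at 0.03. The difference in A was 0.46 (SE 0.09, adjusted p = 2.5e-05 in limma), that in B −0.42 (SE 0.09, adjusted p = 0.00021) and that in E −0.11 (SE 0.09, adjusted p = 0.28). The injury effects with and without MP differed by −0.57 (SE 0.12, adjusted p = 0.00082 in limma's test of B minus D, which equals E minus A). A was called at 8, 12 and 24 h, with 0.62, 0.79 and 0.88, of which the 8 h call was lost after quantile normalization (0.54), with array weights and for 1 of the 2 probe sets. The SCI-EtOH rats of 0 h, at 0.43 and 0.28, lay above the sham rats of 0 h, at −0.23 and 0.11, a difference of 0.42 (SE 0.23, adjusted p = 0.51). With it taken off, A was 0.04 (adjusted p = 0.94), and with it added, B was −0.0046 (adjusted p = 0.999).

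**Figure D3:**
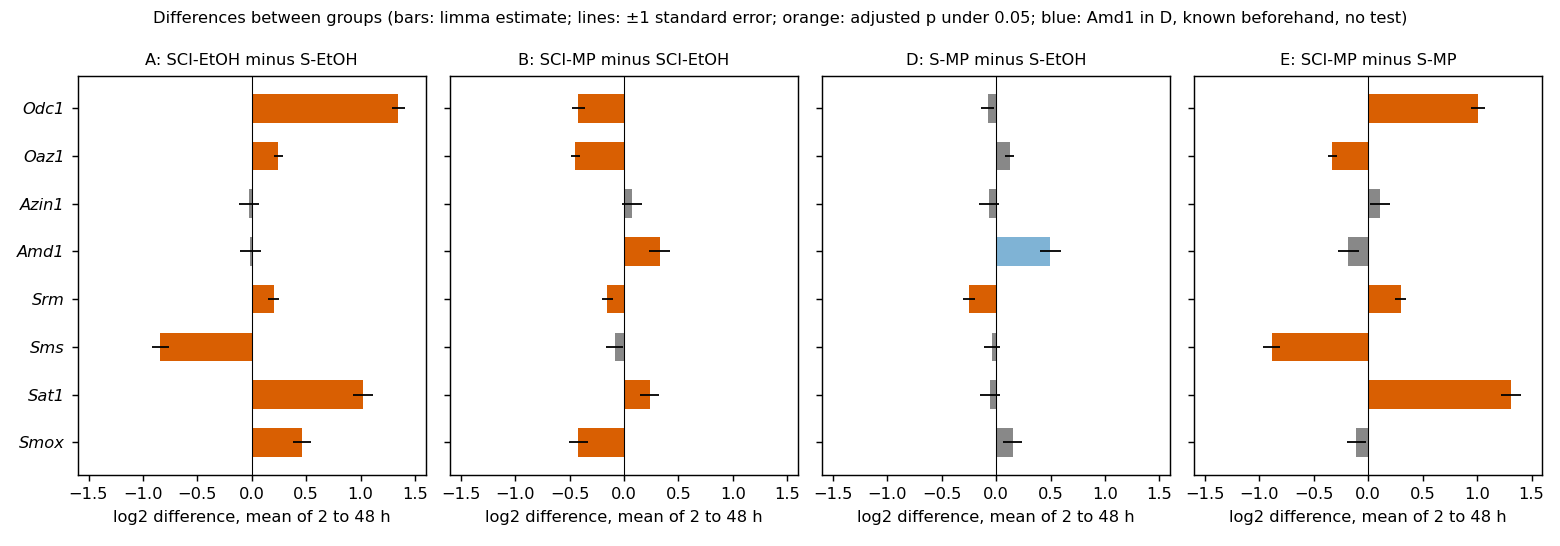
Log2 difference of the 8 genes over the mean of 2 to 48 h (horizontal axis) in A, B, D and E, as bars with lines of 1 SE from limma; orange bars have an adjusted p under 0.05, and the blue bar is Amd1 in D, given with no test. The injury panels A and E share high Odc1 and Sat1 and low Sms, and Oaz1 points up in A and down in E.

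Counted over the mean of 7 times, 5 of the 8 genes were higher and 1 lower after injury without MP, where 35.1% of all genes were higher and 27.5% lower. The median difference of the members was 0.22, and that of all genes 0.04. In injured rats, MP went with 2 genes higher and 4 lower, where 10.4% of all genes were higher and 31.7% lower, and the medians were −0.12 and −0.06. In sham rats, 1 gene was higher, Amd1, given with no test, and 1 was lower, Srm, where 5.63% of all genes were higher and 4.22% lower. The medians were −0.05 and 0.0022. Injury with MP left 3 genes higher and 2 lower, where 21.7% were higher and 33.3% lower, and the medians were −0.0029 and 0.0037. No test sets the members' counts apart from those of all genes. For the difference between the MP effects of injured and sham rats (B minus D), 0 genes were higher and 3 lower, where 5.45% of all genes were higher and 20.2% lower. These 3 were Oaz1 at −0.57 (SE 0.06, adjusted p = 5.2e-08), Smox at −0.57 (SE 0.12, adjusted p = 0.00082) and Odc1 at −0.34 (SE 0.09, adjusted p = 0.0039), the last of which was not called after quantile normalization (−0.16). B minus D rests on the SCI-EtOH arrays as B does, and with the 0 h difference added none of the 8 was called by limma (0 at an unadjusted p under 0.05), with Odc1 at 0.07. In that fit B minus D called 0 higher and 0 lower of all genes.

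At the single times, with 2 rats against 2, 26 of the 56 differences of A were called, 20 of them higher, against 22.9% of all genes and times. In E 28 of 56 were called, 18 of them higher, against 22.7%. In B 10 of 56 were called, 8 of them lower, against 7.10%. Without Amd1, limma called 0 of 49 in D, with 7 at an unadjusted p under 0.05, against 0.205% called in the whole table. The methods' plain analysis of each time also called 0 in D, against 0.889% in the whole table.

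**Figure D4:**
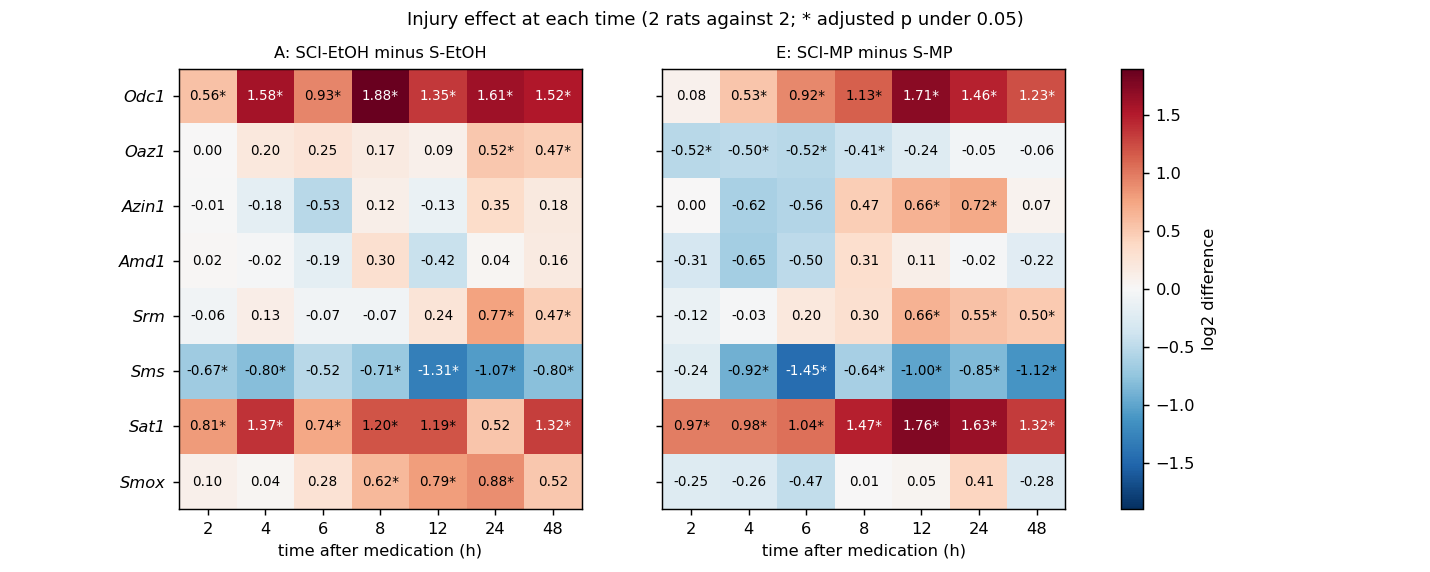
Log2 difference between injured and sham rats for the 8 genes (rows) at each time after medication in h (columns), without MP (A, left) and with MP (E, right), with 2 rats against 2 and a star where limma's adjusted p was under 0.05. Odc1 is called from 2 h on in A and from 4 h on in E, Sat1 at 2 h already in both, and Oaz1 is at or above 0 in A and below 0 in E at each time, before the 0 h difference is taken off A.

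In the phases named by the study, the genes called in A were 3 at 2~6 h, 4 at 8 h, 4 at 12 h and 6 at 24~48 h, where 35.1%, 24.4%, 31.6% and 47.6% of all genes were called. In E they were 6, 4, 5 and 4, where 36.2%, 15.9%, 34.1% and 40.9% were called, and 5 of the first 6 are genes other than Amd1. In B they were 3, 2, 2 and 2, against 26.6%, 6.65%, 16.2% and 13.9%. After quantile normalization the calls in B of Odc1 and Amd1 at 8 h and of Amd1 and Oaz1 at 12 h were lost. So were those of Oaz1 and Smox at 24~48 h and that of Srm at 2~6 h. In D the gene at 2~6 h was Amd1, given with no test, and of the other 7 genes limma called 0 at 8, 12 and 24~48 h, with 2, 2 and 0 at an unadjusted p under 0.05, against 1.17%, 0.691%, 0.559% and 0.154% of all genes in the 4 phases. Odc1 differed in E by 0.51, 1.13, 1.71 and 1.34 over the phases, and in A by 1.02, 1.88, 1.35 and 1.57. The change of the injury effect from 2~6 h to 24~48 h was tested directly in A. In A it was called for 4 genes, all upwards, where 31.4% of all genes were called in either direction: Srm by 0.62, Smox by 0.56, Odc1 by 0.55 and Oaz1 by 0.34. In E the same contrast was added after its values were seen, so its calls are given as a description. There it was also called by limma for 4 genes upwards, where 24.8% were called: Odc1 by 0.83 (adjusted p = 8.7e-05), Azin1 by 0.78 (adjusted p = 0.0078), Srm by 0.51 (adjusted p = 0.0027) and Oaz1 by 0.46 (adjusted p = 0.00096). For Sat1 and Sms no such change was called in either. After quantile normalization the changes in A of Odc1 (0.07), Oaz1 (0.16) and Smox (0.55) were no longer called. Those of Srm, Oaz1 and Smox were not called for 1 of the 2 probe sets of each gene.

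**Figure D5:**
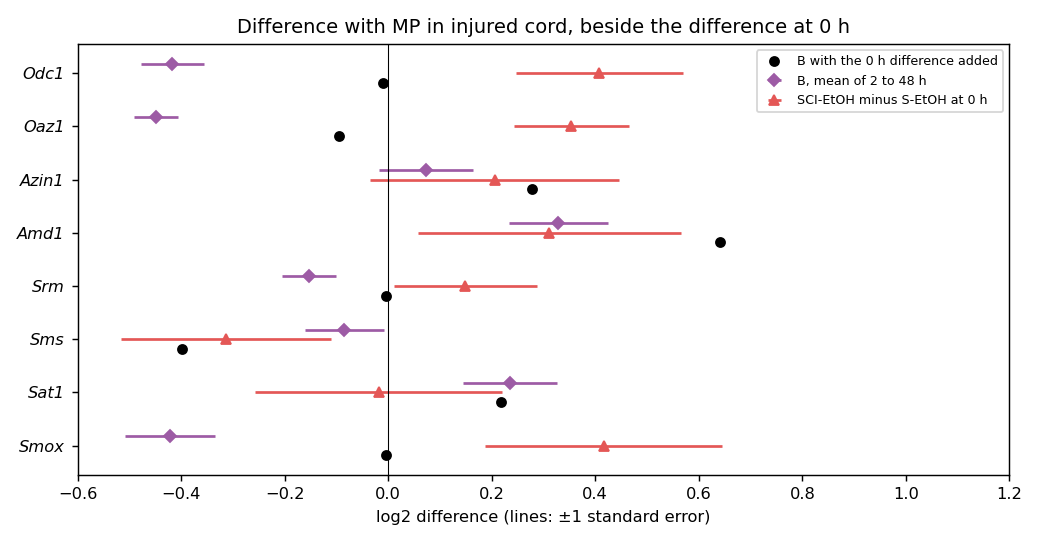
For the 8 genes, the log2 difference between SCI-MP and SCI-EtOH over the mean of 2 to 48 h (diamonds), the difference between SCI-EtOH and S-EtOH at 0 h (triangles), both with lines of 1 SE from limma, and their sum (circles, without an error). For Odc1, Oaz1, Srm and Smox the diamond and the triangle lie on opposite sides of 0, and the sum lies between −0.10 and 0.

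No rat with MP was taken at 0 h, so that the 0 h values show only how the SCI-EtOH rats differed from S-EtOH rats at the start. None of the 8 genes was called at 0 h by limma (2 at an unadjusted p under 0.05), where 0.0419% of all genes were called. Of the probe sets of Oaz1, 1 by itself was called at 0 h, at 0.56 (adjusted p = 0.026 in limma), the one with −0.59 in B. For the 4 genes that were lower in B, namely Oaz1, Odc1, Smox and Srm, the 0 h difference was 0.35, 0.41, 0.42 and 0.15, of the opposite sign to the difference in B, at −0.45, −0.42, −0.42 and −0.15. With the 0 h difference added, none of the 8 was called in B (1 at an unadjusted p under 0.05). Over all genes, B then called 2 higher and 6 lower, against 1483 and 4541 in the main fit. The calls in E and D do not involve the 0 h difference.

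The wider pathway was described by 36 further genes, of which 31 were analysed here. Of these 31, 14 were higher and 3 lower in A, 2 higher and 12 lower in B, 1 higher and 3 lower in D, and 8 higher and 9 lower in E. The shares over all genes were 35.1% higher and 27.5% lower in A, 10.4% and 31.7% in B, 5.63% and 4.22% in D, and 21.7% and 33.3% in E. Of the 8 genes that supply arginine and ornithine, 6 were higher and 0 lower in A, 1 higher and 5 lower in B, and 3 higher and 2 lower in E. None of the 31 was called at 0 h by limma. Arg1, the arginase that makes ornithine, was higher by 1.77 in A (SE 0.14, adjusted p = 4.4e-13 in limma) and by 1.05 in E (SE 0.14, adjusted p = 5.2e-08), and was lower in B at −0.97 (SE 0.14, adjusted p = 1.2e-06). The cationic amino acid carriers Slc7a2 and Slc7a1 were higher by 0.66 and 0.38 in A, and their differences in E were 0.35 and 0.13 (adjusted p = 0.069 for Slc7a1). Oat, which uses ornithine in mitochondria, was higher by 0.33 in A and lower in E at −0.18, and its difference at 0 h was 0.61 (SE 0.15, adjusted p = 0.085). Myc, a transcription factor known to drive Odc1, was higher by 1.32 in A (SE 0.08, adjusted p = 3.0e-15) and by 1.24 in E (SE 0.08, adjusted p = 1.2e-14), with −0.17 in B (adjusted p = 0.11) and −0.08 in D (adjusted p = 0.63).

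Atp13a2, a lysosomal exporter of polyamines, was lower in all 4 comparisons, at −0.89 in A (SE 0.05, adjusted p = 1.1e-15 in limma), −0.56 in B, −0.26 in D and −1.18 in E (SE 0.05, adjusted p = 1.3e-18). Oaz2, a second antizyme, was likewise lower in all 4, at −0.35, −0.37, −0.27 and −0.45. Of the methionine genes, Mat2a, which makes S-adenosylmethionine, was higher by 0.42 in A and 0.45 in E, and Mri1 of the salvage pathway was lower at −0.33 and −0.62. Dohh, which completes the hypusine of the translation factor eIF5A out of spermidine, was higher by 0.25 in A and lower in B at −0.41.

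Markers of the cell types of the cord moved with the injury too. All 10 neuron markers were lower in A (median −1.40) and in E (median −1.26), and their means over 2 to 48 h ranged from 0.11 to 0.40 in S-EtOH and from −2.34 to −0.29 in SCI-EtOH. All 6 astrocyte markers were lower in both (medians −0.82 and −0.83). Of 8 neutrophil markers, 7 were higher in A (median 1.29) and in E (median 0.71), and 7 were lower in B (median −0.63). All 5 macrophage markers were higher in A (median 0.78) and E (median 0.55), and 3 were lower in B. The 4 erythrocyte markers were higher in both (medians 1.35 and 1.52), and 2 were lower in D. Their median difference between SCI-EtOH and S-EtOH at 0 h was 1.45, with none called by limma. Of 7 oligodendrocyte markers, 5 were lower and 1 higher in A, and 4 lower and 1 higher in E. Of 5 microglia markers, 1 was higher and 0 lower in A, and 1 higher and 3 lower in E. Of 4 endothelium markers, 4 were higher in A, and 2 higher and 1 lower in E. Whether these shifts had a part in the differences of Sms, Odc1, Sat1, Oaz1 or Arg1 was not tested. In D the medians were −0.02 for neuron, 0.02 for astrocyte, 0.08 for macrophage and −0.06 for neutrophil markers.

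Over the 30 means of group and time, Odc1 ran with Sat1 (Pearson r = 0.818) and against Sms (r = −0.812), and Sat1 ran against Sms (r = −0.858). Odc1 also ran with Srm (r = 0.745). Amd1 had no r above 0.394 with another member. These values describe means that share the injury and the hours, and carry no test. The genes of the whole table most like Odc1 by this measure were Riok3 (r = 0.977), Stx11 (r = 0.968), Dusp6 (r = 0.966), Cd93 (r = 0.965) and Cemip2 (r = 0.965). For Sat1 they were Ccnl1 (r = 0.949), Pvr (r = 0.945), Fgl2 (r = 0.944), Gadd45b (r = 0.935) and Fosl1 (r = 0.930). For Sms they were Mapk9 (r = 0.980), Ublcp1 (r = 0.975), Parp6 (r = 0.975), Clasp1 (r = 0.975) and Atp6v1c1 (r = 0.971).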

How the data were processed

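RNA of 60 rat cords was measured on Rat Gene 1.0 ST arrays, 1 per rat. The authors condensed the probes of a set by robust multi-array average (RMA), scaled chips and then genes in GeneSpring, and deposited log2 values of 27342 probe sets. These values lie around 0 for each probe set. The reference of that centring is not stated in the sources used here, so no floor on dim probe sets could be set. Groups came from the sample labels. The platform annotation gave 15097 probe sets 1 symbol, 323 several and 11922 none, and 15067 of the first were matched to a gene ID. Probe sets of 1 gene were averaged, giving 14324 genes.

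limma 3.58.1 in R 4.3.3 estimated 30 means, 1 for each group at each time, from all 60 arrays (30 residual degrees of freedom), and contrasts were adjusted over all genes by Benjamini-Hochberg at 0.05. The methods name an analysis of variance with Tukey's test for each time, which was run as an alternative. Labels call the 2 rats of a group duplicates, so p-values measure the spread between these rats. Named are the 8 members, 10 other pathway genes of smallest adjusted p, and the 5 genes most correlated with each of the 3 members of widest range. Members, lists and rules were chosen with earlier results of these data known, and the change with time in E was added after its values were seen. Fits were tested on simulated data. The other alternatives were quantile normalization, array medians set to 0, array weights, a noise filter after the methods (the scale of its coefficient of variation is not stated there), a fit per time span, a duplicate block, each probe set by itself, the 0 h difference taken off, and leaving out arrays. Promoter sequences are those of RefSeq, build GRCr8.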

Additional observations from a re-analysis of the deposited data

Results flagged for a closer look

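The MP effect differed between injured and sham rats by limma's test of the difference itself (B minus D) for Odc1 at −0.34 (adjusted p = 0.0039), Oaz1 at −0.57 (adjusted p = 5.2e-08) and Smox at −0.57 (adjusted p = 0.00082). These differences use the SCI-EtOH arrays, and with the 0 h difference added their values were 0.07, −0.22 and −0.16, with none called by limma. In that fit 0 of all genes were called higher and 0 lower. After quantile normalization Odc1 was not called either, at −0.16.

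The effect of injury without MP differed between 24~48 h and 2~6 h by the same kind of test for Srm at 0.62 (adjusted p = 0.00023), Smox at 0.56 (adjusted p = 0.039), Odc1 at 0.55 (adjusted p = 0.0040) and Oaz1 at 0.34 (adjusted p = 0.0093). After quantile normalization the last 3 were not called. For 1 of the 2 probe sets of Smox and of Oaz1 the change was not called either (adjusted p = 0.062 and 0.054 in limma). With MP this contrast was added after its values were seen, so its calls are a description. There the effect of injury differed by limma for Odc1 at 0.83 (adjusted p = 8.7e-05), Azin1 at 0.78 (adjusted p = 0.0078), Srm at 0.51 (adjusted p = 0.0027) and Oaz1 at 0.46 (adjusted p = 0.00096). For Srm the change was 0.10 in 1 probe set and 1.13 in the other without MP, and 0.22 and 0.80 with MP.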

How the results depend on the processing

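With the 0 h difference taken off A and added to B and to B minus D, the genes called went from 6 to 2 in A (Odc1 and Sat1), from 6 to 0 in B and from 3 to 0 in B minus D, and at single times from 26 to 11 in A and from 10 to 0 in B (7 at an unadjusted p under 0.05 in limma). Over all genes A then called 464 higher and 1310 lower, and B 2 higher and 6 lower. The sign turned for Oaz1 in A (−0.11) and in B at 12 h (0.0028) and for Odc1 in B minus D (0.069). At single times the methods' plain analysis called 8 in A, 4 in B and 8 in E. Of all genes and times it called 6.02%, 2.45% and 6.01%. Quantile normalization called 2 in B, both lower, and 8 in D at single times and 4 in D over the mean, these 4 including Amd1, given with no test. Over all genes, D over the mean then called 2362 higher and 1914 lower, against 807 and 604. Array weights called 6 in B and 7 in D at single times, and a fit per time span 4 in B. For quantile normalization, array weights, a fit per time span and the 0 h difference, no share over all genes stands beside the single-time counts. They describe the 8 genes only, with Amd1 among these in D. With array weights, D over the mean called 2018 higher and 1435 lower over all genes. Each probe set by itself left 1 in D over the mean, which is Amd1, given with no test. After quantile normalization 31.2% of the calls of B minus D over all genes were higher, against 21.2%. The noise filter kept 27338 of 27342 probe sets and all 13 of the members, so that it tested nothing here. The causes were not tested.

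Leaving out 1 array at a time gave 6 in A, 4 to 6 in B, 2 to 3 in D, 5 to 6 in E and 3 to 4 in B minus D over the mean, and 22 to 28 in A, 8 to 13 in B, 0 to 1 in D and 24 to 32 in E at single times. The counts in D over the mean include Amd1, given with no test, and no share over all genes stands beside these counts. Of the 22 calls over the mean, which include Amd1 in D, given with no test, 22 held with array medians set to 0 and a fit per time span, 20 with array weights, 19 after quantile normalization, 18 in every probe set of the gene, and 21 without both SCI-EtOH 6 h arrays (Sat1 in B was lost, at 0.16). Deviations of rats of 1 number in different groups of a time correlated at r from −0.488 to 0.42 over 43 pairs of groups. The median was 0.00, and 10 pairs were over 0.1. These values show no general pairing by number and cannot exclude a shared deviation at some times. With the duplicate number as a block all 22 calls held, and the counts were 6 in A, 6 in B, 2 in D, 5 in E and 3 in B minus D over the mean, and 26, 10, 0 and 28 in A, B, D and E at single times.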
